A study of Mus musculus with 8 samples.

Results

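Nlrp4a, Nlrp4b, Nlrp4c, Nlrp4e, Nlrp4f, Nlrp9a, Nlrp9b, Nlrp9c and Nlrp14 are 9 of the 37310 genes measured in mouse 2-cell embryos. They were chosen by name, as the oocyte-expressed genes of the Nlrp4, Nlrp9 and Nlrp14 branches of the NLRP family, and each was found in the table through its Ensembl identifier. Earlier results of these data were known when the choice was made. Polyadenylated RNA was sequenced from 4 control libraries and 4 libraries of embryos exposed to triclocarban (TCC), an antibacterial compound used in personal care products. Fertilized eggs were cultured in G1 medium with TCC at 6 µM, or with an equal volume of the solvent DMSO in the control group, and the libraries are labelled as 2-cell embryos. The strain, the number of embryos per library and whether the libraries came from separate cultures are not given in the labels, so each p-value speaks only to how far these libraries vary, and that variation may be technical. Expression is given as FPKM, fragments scaled by transcript length and by library size, so that each gene is a part of its own library. In such bulk samples fewer cells of a type and less RNA per cell cannot be told apart.

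NLRP proteins carry an N-terminal pyrin domain, a central nucleotide-binding NACHT domain and a C-terminal run of leucine-rich repeats. Some members of the family, such as NLRP3, assemble inflammasomes that activate caspase-1 in immune cells, whereas the branches described here are expressed mainly in oocytes, have multiplied by tandem duplication in rodents, and leave maternal transcripts and proteins in the early embryo. NLRP5, NLRP2 and NLRP4F belong to or associate with the subcortical maternal complex of the egg cytoplasm, and NLRP14 of the mother is required for early embryonic development.

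The 9 genes are close relatives, and 8 of them lie on chromosome 7 in the GRCm38 (mm10) build with GENCODE M21 gene models. Nlrp4f alone lies elsewhere, at chr13:65177111-65205977. Nlrp9c (chr7:26322473-26403700), Nlrp4a (chr7:26435113-26476142) and Nlrp9a (chr7:26535023-26575615) follow one another. Nlrp4c is at chr7:6045161-6105150, Nlrp4b at chr7:10687789-10730168, Nlrp9b at chr7:19991465-20073306, Nlrp4e at chr7:23301192-23362277 and Nlrp14 at chr7:107166990-107198102. Coding sequences of Nlrp4c and Nlrp4e were identical at 93.9% of aligned bases, those of Nlrp4a and Nlrp4c at 86.3%, and those of Nlrp9a and Nlrp9c at 87.7%. Nlrp4b stood further from the rest of its branch, at 77.8% to 79.1%, and Nlrp14 was at 59.8% to 63.1% against the other 8 genes. The coding stretches below show how nearly alike these genes can be over a length shorter than one sequencing read of 150 bases. They were taken where copies differ least, and capitals mark the columns at which the 3 genes of a branch are not all the same.
Nlrp4c: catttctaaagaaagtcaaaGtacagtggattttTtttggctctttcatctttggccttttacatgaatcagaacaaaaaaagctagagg
Nlrp4e: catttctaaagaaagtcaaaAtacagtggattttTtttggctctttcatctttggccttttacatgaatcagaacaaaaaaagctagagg
Nlrp4a: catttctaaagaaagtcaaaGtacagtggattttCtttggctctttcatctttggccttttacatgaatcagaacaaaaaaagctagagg
Nlrp9a: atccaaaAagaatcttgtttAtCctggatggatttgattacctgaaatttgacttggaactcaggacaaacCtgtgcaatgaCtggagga
Nlrp9c: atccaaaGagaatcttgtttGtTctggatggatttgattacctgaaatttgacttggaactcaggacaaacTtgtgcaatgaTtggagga
Nlrp9b: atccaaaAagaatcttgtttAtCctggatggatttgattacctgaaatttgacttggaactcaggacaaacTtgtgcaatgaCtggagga

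The first 3 stretches are coding bases 1454 to 1543, in exon 3 of Nlrp4c (chr7:6066555-6066644), exon 2 of Nlrp4e (chr7:23321543-23321632) and exon 4 of Nlrp4a (chr7:26450423-26450512), all on the plus strand, and they differ at 2 of 90 positions. The other 3 are coding bases 647 to 736, in exon 3 of Nlrp9a (chr7:26557605-26557694, plus strand), exon 2 of Nlrp9c (chr7:26385417-26385506, minus strand) and exon 3 of Nlrp9b (chr7:20023486-20023575, plus strand), with 5 differing positions. Over whole transcripts, 36.9% of the 50-base words of Nlrp4e also occur in a transcript of another gene. Most of these are shared with the Nlrp4-like pseudogenes Gm16443, Gm8486, Gm8685, Gm8728 and Gm4541, which were not analysed here. The share was 11.9% for Nlrp4c, mostly with Nlrp4e and the same pseudogenes, 7.08% for Nlrp4f, mostly with the related Nlrp4g, and between 3.11% and 6.54% for Nlrp4a and the 3 Nlrp9 genes. It was 0 for Nlrp4b and Nlrp14. At 150 bases, 3.40% of the words of Nlrp4e and none of those of the other 8 genes were shared. How the authors counted reads that match several genes is not given in the sources used here, so the levels of Nlrp4e and Nlrp4c are the least certain, and those of Nlrp4b and Nlrp14 are the least touched by shared sequence.

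**Figure D1:**
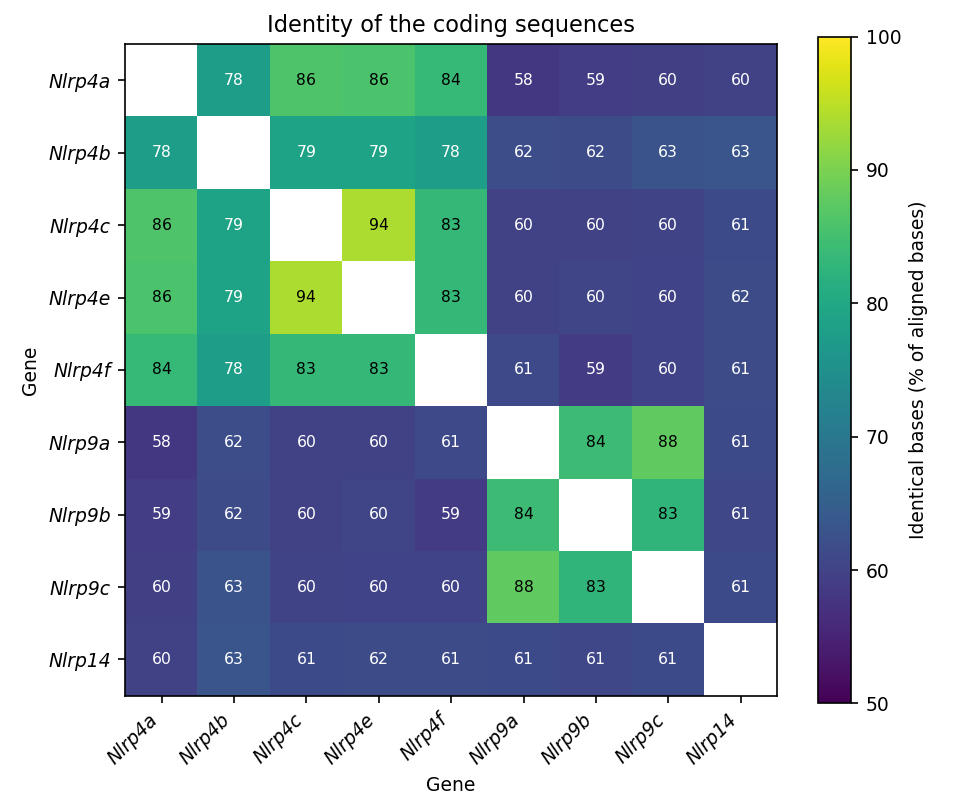
Percent of identical bases between the aligned coding sequences of the 9 genes, each cell being 1 pair and lighter colours marking closer pairs, with the diagonal left blank. The Nlrp4 and Nlrp9 branches form separate blocks, with Nlrp4c and Nlrp4e the closest pair at 93.9%, and Nlrp14 resembles none of the others closely.

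Most of these maternal transcripts were higher in the TCC embryos. All 9 genes passed the filter of 1 FPKM in at least 4 of the 8 libraries, and 7 of the 9 rose in the limma fit over all 12941 genes tested, with Benjamini-Hochberg adjusted p under 0.05, while none fell. The share of all tested genes that rose was 11.3%, and 30.8% fell. Over the 9 genes the median log2 change was 1.53, beside -0.19 over everything tested, where a log2 change is TCC minus control on the scale of log2(FPKM + 1). For 6 of the 9, every TCC library lay above every control library, which was so for 10.2% of tested genes. Nlrp4c and Nlrp9c did not pass the test.

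**Figure D2:**
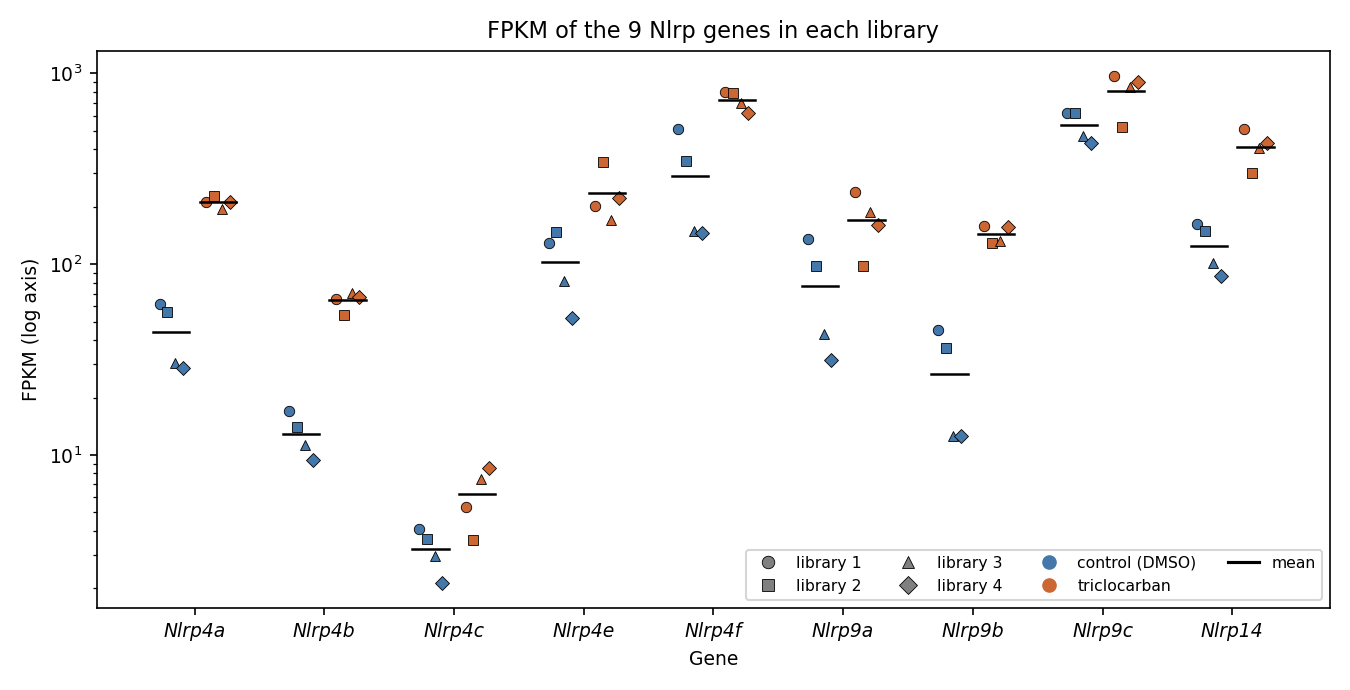
FPKM of each of the 9 genes in each library on a log axis, with 1 point per library (blue controls, orange TCC, 1 symbol per replicate number) and a black line at each group mean. TCC points lie above the control points for Nlrp4a, Nlrp4b, Nlrp4e, Nlrp4f, Nlrp9b and Nlrp14, and the groups overlap for Nlrp4c, Nlrp9a and Nlrp9c.

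Within the Nlrp4 branch, Nlrp4f was the most abundant gene per length. NLRP4F is a component of the subcortical maternal complex, which organises the cytoplasm of the egg and early embryo. Its level was 514.3, 347.1, 148.6 and 145.3 FPKM in controls 1 to 4 and 795.1, 790.8, 699.1 and 619.9 FPKM in TCC libraries 1 to 4. The groups did not overlap, although control 1 reached more than 3 times the level of controls 3 and 4. Group means were 288.8 ± 177.4 and 726.2 ± 83.6 FPKM (SD, n = 4 each), and the log2 change was 1.53 (SE 0.40, limma adjusted p = 0.00912). Against controls 1 and 2 alone the log2 change was 0.77 (adjusted p = 0.0541), so this call rests on controls 3 and 4.

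Nlrp4a and Nlrp4b gave 2 of the 3 largest rises among the 9 genes. Nlrp4a was at 61.5, 56.2, 30.3 and 28.6 FPKM in controls 1 to 4 and at 211.6, 228.3, 194.1 and 212.1 FPKM in TCC libraries 1 to 4. The lowest TCC library was thus more than 3 times the highest control. Its mean went from 44.2 ± 17.1 to 211.5 ± 14.0 FPKM (SD, n = 4 each), with a log2 change of 2.31 (SE 0.30, limma adjusted p = 0.000166). Nlrp4b was at 16.9, 14.0, 11.3 and 9.41 FPKM in the controls and at 66.0, 54.4, 70.9 and 67.1 FPKM with TCC. Here too the groups were far apart, and the log2 change was 2.26 (SE 0.25, limma adjusted p = 8.7e-05). The means of Nlrp4b were 12.9 ± 3.28 and 64.6 ± 7.10 FPKM (SD, n = 4 each). By size of rise, Nlrp4a ranked 96 and Nlrp4b ranked 106 of the 12941 tested genes.

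Nlrp4e, a gene whose knockdown is known to impair preimplantation development, was at 128.9, 147.0, 81.6 and 52.1 FPKM in controls 1 to 4 and at 202.9, 343.4, 169.8 and 223.2 FPKM in TCC libraries 1 to 4. The groups did not overlap, but the highest control and the lowest TCC library were close. The log2 change was 1.25 (SE 0.36, limma adjusted p = 0.0152), and without controls 3 and 4 it was 0.72 (adjusted p = 0.120). TCC library 2, the library with the fewest estimated fragments, held the highest Nlrp4e level of all 8.

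Nlrp4c, the closest relative of Nlrp4e, was the least abundant of the 9 genes. It was at 4.07, 3.63, 2.94 and 2.14 FPKM in controls 1 to 4 and at 5.35, 3.57, 7.47 and 8.54 FPKM in TCC libraries 1 to 4. TCC library 2 lay within the range of the controls, and the other 3 TCC libraries lay above it. The log2 change of 0.75 (SE 0.30) did not pass the test (limma adjusted p = 0.0605). Without TCC library 2 it was 0.96 and passed (adjusted p = 0.0159). A rough estimate put 87 to 326 fragments behind each of these values.

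The 3 Nlrp9 genes had log2 changes from 0.57 to 2.60. In the mouse, Nlrp9b is known from the intestinal epithelium as a sensor of viral RNA, and all 3 genes are expressed in oocytes. Nlrp9b was at 45.4, 36.2, 12.6 and 12.6 FPKM in controls 1 to 4 and at 157.7, 129.8, 132.1 and 155.9 FPKM in TCC libraries 1 to 4. Its TCC libraries were close together and well above every control, and its controls fell into a higher and a lower pair. The mean went from 26.7 ± 16.7 to 143.9 ± 15.0 FPKM (SD, n = 4 each), with a log2 change of 2.60 (SE 0.40, limma adjusted p = 0.000465). It was the largest rise among the 9 genes, ranking 46 of 12941.

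Nlrp9a was at 135.4, 98.2, 43.2 and 31.6 FPKM in controls 1 to 4 and at 237.7, 98.0, 188.6 and 161.2 FPKM in TCC libraries 1 to 4. TCC library 2 lay below control 1 and beside control 2, so the groups overlapped. The log2 change of 1.3 (SE 0.45) passed the test narrowly (limma adjusted p = 0.0368). It no longer passed when control 3 (adjusted p = 0.102), control 4 (0.107), TCC library 1 (0.105), TCC library 3 (0.0858) or TCC library 4 (0.0730) was left out. Without controls 3 and 4 together its log2 change was 0.50 (adjusted p = 0.354).

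Nlrp9c was the most abundant of the 9 genes per length, at 619.4, 617.8, 472.3 and 433.8 FPKM in controls 1 to 4 and at 968.9, 521.6, 846.8 and 900.0 FPKM in TCC libraries 1 to 4. TCC library 2 again lay among the controls, and the other 3 TCC libraries lay above all of them. The means were 535.8 ± 96.9 and 809.3 ± 198.2 FPKM (SD, n = 4 each), and the log2 change of 0.57 (SE 0.28) did not pass (limma adjusted p = 0.120). Without TCC library 2 it was 0.77 and passed (adjusted p = 0.0182).

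Nlrp14, whose protein has been reported to bind the DNA methylation cofactor UHRF1 and the mitochondrial exchanger encoded by Slc8b1, was at 161.6, 149.2, 101.8 and 86.9 FPKM in controls 1 to 4. In TCC libraries 1 to 4 it was at 508.6, 301.2, 408.5 and 433.5 FPKM. Every TCC library lay above every control, and TCC library 2 was the lowest of its group. The mean went from 124.9 ± 36.1 to 413.0 ± 85.8 FPKM (SD, n = 4 each), with a log2 change of 1.74 (SE 0.29, limma adjusted p = 0.000652). Nlrp14 shares no 50-base word with another annotated transcript.

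The controls themselves differed in these genes. Controls 1 and 2 lay above controls 3 and 4 for every one of the 9 genes, by a ratio of pair means from 1.37 for Nlrp9c to 3.25 for Nlrp9b. The number of the 9 genes that rose was 4 against controls 1 and 2 alone, namely Nlrp4a, Nlrp4b, Nlrp9b and Nlrp14, beside 5.37% of all tested genes. Against controls 3 and 4 alone it was 9, beside 21.9% of all tested genes. The split was not limited to these genes. Across all tested genes the log2 values correlated at 0.974 between controls 1 and 2 and at 0.976 between controls 3 and 4, but at 0.874 to 0.907 across the pairs, and control 1 stood as near to TCC library 3 (0.884) as to control 3 (0.874). Mitochondrially encoded genes took 16.6% and 17.6% of FPKM in controls 1 and 2 and 22.6% and 24.3% in controls 3 and 4. No label tells the 2 pairs of controls apart, and the cause of their difference was not tested. With median-of-ratios scaling, which shifted the median over everything tested from -0.19 to 0.06, all 9 genes rose, beside 20.4% of tested genes. Under quantile normalization that median was 0.13 and 8 of the 9 rose, beside 21.7% of tested genes. Each of the 9 log2 changes exceeded the median of all genes under each of these scalings.

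**Figure D3:**
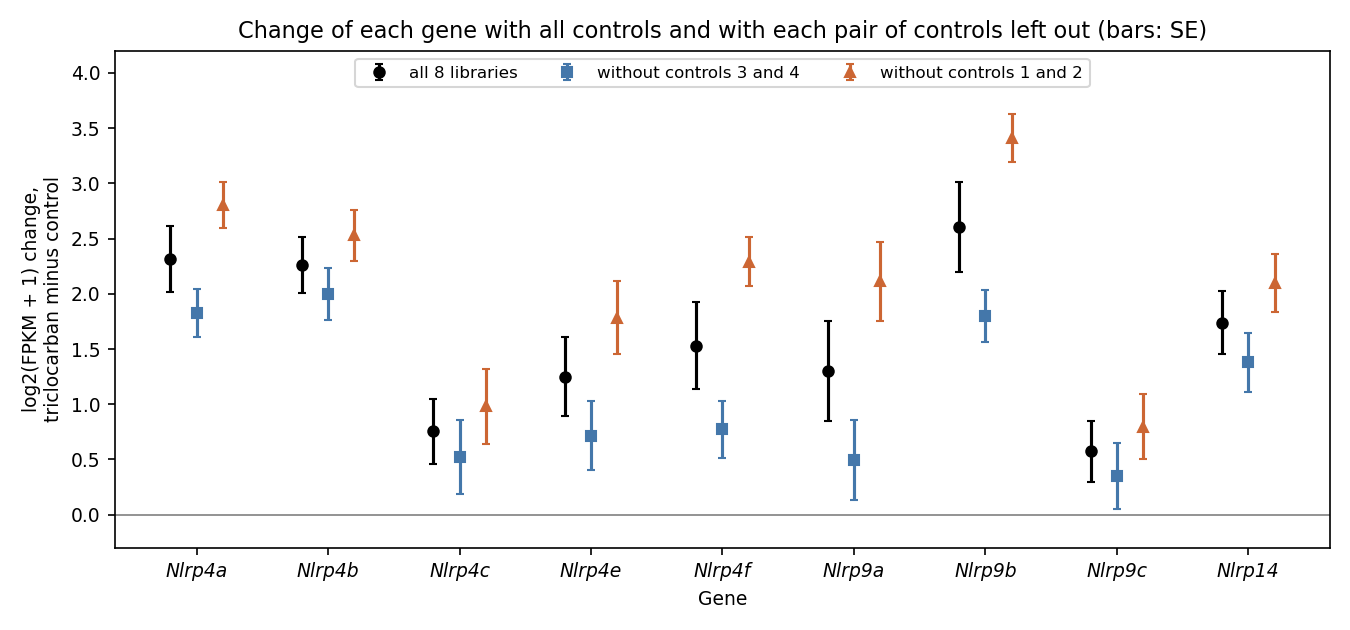
Log2 change of each gene, TCC minus control on the scale of log2(FPKM + 1), with bars of 1 SE, from all 8 libraries, without controls 3 and 4, and without controls 1 and 2. The changes are smallest against controls 1 and 2 and all lie above 0; Nlrp4a, Nlrp4b, Nlrp9b and Nlrp14 passed the test in each of the 3 fits.

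Because near copies can trade reads, the levels were also summed. Such a sum does not cover reads traded with genes outside it, such as the Nlrp4-like pseudogenes for Nlrp4e and Nlrp4g for Nlrp4f. The 9 genes together held 1687, 1469, 904.7 and 802.4 FPKM in controls 1 to 4 and 3154, 2471, 2717 and 2781 FPKM in TCC libraries 1 to 4. The groups did not overlap. The mean sum was 1216 ± 429.9 FPKM in the controls and 2781 ± 282.3 FPKM with TCC (SD, n = 4 each), 2.29-fold higher, and its share of all FPKM went from 0.218% ± 0.089 to 0.518% ± 0.043. The 5 Nlrp4 genes summed to 451.5 and 1243 FPKM, a 2.75-fold difference, and the 3 Nlrp9 genes to 639.6 and 1125 FPKM, a 1.76-fold difference. The Nlrp4 sums did not overlap between the groups, but the Nlrp9 sum of TCC library 2 (749.4 FPKM) lay below those of controls 1 and 2 (800.2 and 752.3 FPKM).

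The make-up of this sum differed as well. Nlrp9c took 46.3% ± 8.27 of it in the controls and 28.8% ± 5.20 with TCC (SD, n = 4 each). Nlrp4a took 3.60% ± 0.20 and 7.68% ± 1.11, and Nlrp9b took 2.03% ± 0.65 and 5.18% ± 0.33. For none of these 3 did the control and TCC libraries overlap, and the same held for Nlrp4b and Nlrp14. The shares of Nlrp4c, Nlrp4e, Nlrp4f and Nlrp9a overlapped. All are parts of the same sum, so a change in any share moves the others and they are not separate results. In order of level per length, the controls ran Nlrp9c, Nlrp4f, Nlrp14, Nlrp4e, Nlrp9a, Nlrp4a, Nlrp9b, Nlrp4b, Nlrp4c, and within a library the higher gene of a neighbouring pair was above the next in all 4 controls for 7 of 8 pairs, the exception being Nlrp4e and Nlrp9a with 3 of 4. Between libraries the ranges of neighbours overlapped except for Nlrp4b and Nlrp4c. The TCC libraries kept this order but for Nlrp4a, which stood above Nlrp9a. There 3 of the 8 neighbouring pairs held their order in all 4 libraries, the ones whose ranges did not overlap, namely Nlrp4f and Nlrp14, Nlrp9b and Nlrp4b, and Nlrp4b and Nlrp4c.

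**Figure D4:**
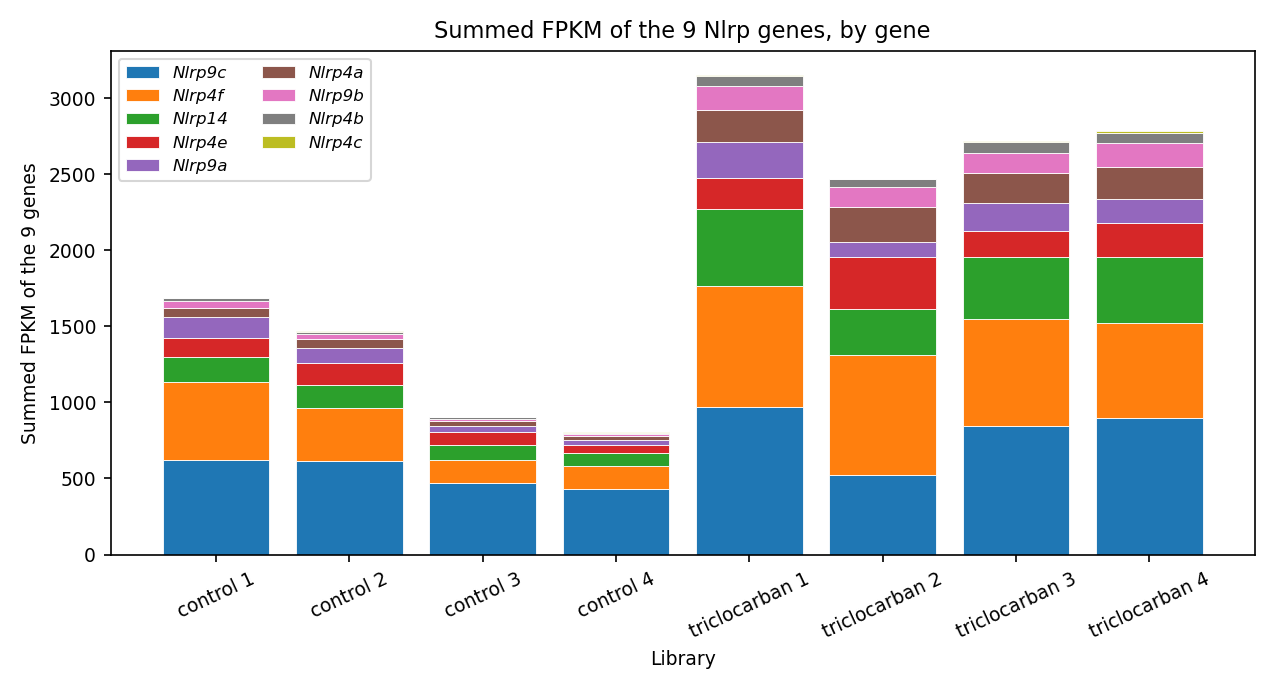
Summed FPKM of the 9 genes in each library, stacked by gene, from a bar base of 0. The 4 TCC bars lie between 2471 and 3154 FPKM and the 4 control bars between 802.4 and 1687 FPKM, with controls 3 and 4 the lowest.

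Relatives were also compared within each library, as differences of log2(FPKM + 1), given here as log2 ratios; the added 1 leaves a small dependence on scaling. All 13 pairs within the Nlrp4 and Nlrp9 branches were compared, a comparison added after the levels had been seen. The log2 ratio of Nlrp9b to Nlrp9c was -3.74, -4.06, -5.12 and -5.001 in controls 1 to 4, against -2.61, -1.998, -2.67 and -2.52 in TCC libraries 1 to 4. The groups did not overlap, and the mean differed by 2.03. Nlrp4a to Nlrp4c differed by 1.56, Nlrp4b to Nlrp4c by 1.51, Nlrp9b to Nlrp9a by 1.3, Nlrp4a to Nlrp4e by 1.07 and Nlrp4a to Nlrp4f by 0.78, also without overlap. For each of these 6 pairs the two-sided exact permutation p was 0.0286, the smallest that 4 against 4 libraries can give, and the Benjamini-Hochberg adjusted p over the 13 pairs was 0.0619, so none passed the correction. Taken on FPKM with nothing added, which library scaling cannot move, the same 6 pairs did not overlap, with differences from 0.81 for Nlrp4a to Nlrp4f to 2.09 for Nlrp9b to Nlrp9c. The log2 ratio of Nlrp4a to Nlrp4b differed by 0.05 (exact permutation p = 0.8). The pairs reuse the same genes and are not independent of one another. How often ratios between other genes do not overlap was not computed. For single genes, the TCC libraries lay above all controls for 1322 and below all controls for 3882 of the 12941 tested.

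The promoters of the members were taken from RefSeq (GRCm38.p6), where 8 of the 9 genes were matched with 10 start sites. Nlrp14 was not matched. The windows below run from 90 bases before the start site to 30 bases from it onward, and are shown because 3 Nlrp4 genes share words that few other promoters hold, and because Nlrp9a and Nlrp9c share most of theirs. Capitals mark runs made of 10-base words shared by the Nlrp4a, Nlrp4b and Nlrp4c promoters, or by the Nlrp9a and Nlrp9c promoters. The promoters compared are longer than the windows shown, so a run in capitals can lie outside the window shown for a relative.
Nlrp4a: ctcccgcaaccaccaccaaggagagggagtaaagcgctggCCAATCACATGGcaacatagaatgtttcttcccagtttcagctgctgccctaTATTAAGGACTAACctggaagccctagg
Nlrp4b: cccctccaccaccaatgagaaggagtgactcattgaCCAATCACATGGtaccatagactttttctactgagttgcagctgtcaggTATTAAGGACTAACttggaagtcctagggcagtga
Nlrp4c: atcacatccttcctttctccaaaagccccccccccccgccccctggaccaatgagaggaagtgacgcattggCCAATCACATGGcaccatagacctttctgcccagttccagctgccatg
Nlrp9a: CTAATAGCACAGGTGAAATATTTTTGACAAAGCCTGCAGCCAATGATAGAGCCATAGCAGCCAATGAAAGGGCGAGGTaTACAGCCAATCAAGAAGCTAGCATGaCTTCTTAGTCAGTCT
Nlrp9c: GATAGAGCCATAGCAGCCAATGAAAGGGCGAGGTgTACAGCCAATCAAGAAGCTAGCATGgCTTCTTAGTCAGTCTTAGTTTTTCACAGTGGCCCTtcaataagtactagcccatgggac

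These are chr7:26435524-26435643 (the second listed start of Nlrp4a), chr7:10687703-10687822, chr7:6045071-6045190 and chr7:26534933-26535052 on the plus strand and chr7:26403671-26403790 on the minus strand. The word CCAATCACATGG occurs in all 3 Nlrp4 promoters and in 7 of the 32851 promoters of the table, which belong to 6 genes. TATTAAGGACTAAC occurs in 4 promoters, which belong to these 3 Nlrp4 genes alone; in Nlrp4c it begins 30 bases after the start site, just outside the window shown. Whether these words bear on the levels was not tested. The RefSeq windows of Nlrp4f (chr13:65205667-65205966) and Nlrp9b (chr7:20007773-20008072) lie wholly inside their GENCODE gene models. Bases before those gene models were thus not searched. Nlrp4f and Nlrp4a share a run of 26 bases, at -231 from the start site of Nlrp4f and at 24 from that of Nlrp4a. The promoters of Nlrp9a and Nlrp9c share 181 words of 10 bases, with one unbroken run of 106 identical bases, and their log2 changes were 1.3 and 0.57. The log2 ratio of Nlrp9a to Nlrp9c differed by 0.73 between the groups, with overlap (two-sided exact permutation p = 0.114). The letters CCAAT, on both strands, occur 3 times in the promoters of Nlrp4c, Nlrp9a and Nlrp9c, while 3.37% of all promoters hold 3 or more and 37.4% hold at least 1; this motif was looked for after the sequences had been read. CANNTG, the core of the binding sites of basic helix-loop-helix factors such as FIGLA, occurs in all 10 windows and in 72.3% of all promoters. TAATTG, the core of the NOBOX site, occurs in the promoters of Nlrp9a and Nlrp9b and in 8.0% of all, and TATAAA in that of Nlrp9b and in 13.6% of all. All were searched on both strands of windows from 250 bases before the start to 50 after it.

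At the 3' end, maternal transcripts can carry a cytoplasmic polyadenylation element, through which the egg lengthens poly(A) tails and activates translation. TTTTAT or TTTTAAT within the last 100 bases was found in 3 of the 9 genes, Nlrp4a, Nlrp4c and Nlrp4f, and in 19.4% of the 10690 tested genes that had a protein-coding transcript. AATAAA or ATTAAA within the last 50 bases was found in 7 of the 9, all but Nlrp4a and Nlrp14, and in 79.1% of the same genes. Both together were found in 2 of the 9, Nlrp4c and Nlrp4f, and in 16.2% of the same genes. In Nlrp4c they overlap, as TTTTATTAAA. The first element was held by 18.9% of the 1205 such genes that rose and by 17.1% of the 3217 that fell. Tail length was not measured. Of 21 genes of cytoplasmic polyadenylation and deadenylation 4 rose and 5 fell, beside 11.3% and 30.8% of all tested genes. The 3 with the smallest adjusted p all fell. They were Papola, the canonical poly(A) polymerase, by 2.09 on the log2 scale, Cpeb2, a relative of the element-binding protein CPEB1, by 1.70, and the cleavage factor gene Cpsf4 by 1.19 (limma adjusted p = 0.000367, 0.0013 and 0.00604). The 4 that rose were Pabpn1l (log2 change 2.08), Btg4 (1.52), Papolg (1.10) and Parn (0.70). Cpeb1 itself had a log2 change of 0.52 and did not pass (limma adjusted p = 0.225).

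Of the other NLR genes, 22 were in the table and 6 passed the filter, of which 1 rose and 1 fell. Nlrp5 (MATER), the founding maternal-effect gene of the family, was at 33.6, 27.9, 18.6 and 21.5 FPKM in controls 1 to 4 and at 74.2, 50.04, 63.0 and 62.9 FPKM in TCC libraries 1 to 4. It rose with a log2 change of 1.29 (SE 0.26, limma adjusted p = 0.00239), and its groups did not overlap. Ciita, the activator of MHC class II genes, fell by 0.95 on the log2 scale, from 2.46 ± 0.43 to 0.81 ± 0.35 FPKM (SD, n = 4 each, limma adjusted p = 0.00572). Nlrp2, a maternal gene of the same family, had a log2 change of 0.54 (limma adjusted p = 0.307). Nlrc4 and Naip1 had log2 changes of 0.65 and 0.80 (limma adjusted p = 0.107 and 0.0913). The peptidoglycan sensor Nod2 had 0.40 (limma adjusted p = 0.285). The inflammasome gene Nlrp3 was below the filter, at 0.15 ± 0.05 FPKM in the controls and 0.02 ± 0.03 FPKM with TCC (SD, n = 4 each), and Nlrp4d was listed at 0 in all 8 libraries.

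In the subcortical maternal complex, 3 of 7 genes rose and none passed the test as lower, with a median log2 change of 1.03. Khdc3 went the other way, with every TCC library below every control, but did not pass (log2 change -0.53, limma adjusted p = 0.0891). Tle6, Nlrp2 and Zbed3 had positive changes that did not pass. Ooep, a small KH-domain subunit, went from 67.7 ± 40.1 to 445.9 ± 97.9 FPKM (SD, n = 4 each; log2 change 2.88, limma adjusted p = 0.000247). Nlrp5 is given above, and Padi6, which is needed for the egg's cytoplasmic lattices, had a log2 change of 1.03 (limma adjusted p = 0.0239). Among inflammasome adaptors and effectors 1 of 5 tested genes rose and 1 fell. Casp8, a protease of cell death signalling, went from 0.90 ± 0.76 to 10.2 ± 2.85 FPKM (SD, n = 4 each; log2 change 2.60, limma adjusted p = 0.000182), and Gsdmd, the pore-forming effector of pyroptosis, was between 1.27 and 1.89 FPKM in the controls and listed at 0 in every TCC library. Gsdmd passed the filter through its controls alone, and Casp8 would not have passed it without its TCC libraries. Their entry into the test thus depended on the group where each was high. Of the reported NLRP14 partners neither of the 2 tested genes passed. Uhrf1 had a log2 change of 1.12 (limma adjusted p = 0.0547), and Slc8b1 was below the filter.

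Among transcription factors of the oocyte, 2 of 6 tested genes rose and 1 fell. Nobox, which drives many oocyte genes, was at 46.2, 42.5, 13.9 and 11.01 FPKM in controls 1 to 4 and at 116.3, 63.2, 109.2 and 107.2 FPKM in TCC libraries 1 to 4. The log2 change was 1.98 (SE 0.45, limma adjusted p = 0.00449), and the controls of Nobox fell into the same higher and lower pairs as those of the Nlrp genes. Gtf2a1l, a germ-cell form of a general transcription factor subunit, had a log2 change of 1.2 (limma adjusted p = 0.0161), and Taf4b, a germ-cell subunit of TFIID, fell by 1.37 on the log2 scale (limma adjusted p = 0.0184).

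Genes whose profile over the 8 libraries lay nearest to the mean profile of each branch were found by the root mean square difference of centred log2 values among 6818 genes, for which the median was 1.01 or more. Nearest to the Nlrp4 mean were Btf3 (0.076), Cep55 (0.091) and Fdx1 (0.099). Nearest to the Nlrp9 mean were Nuf2 (0.106), Sptlc2 (0.107) and Btg4 (0.108), the last an adaptor for deadenylation of maternal mRNA. Nearest to Nlrp14 were Iqcb1 (0.135), Tfb1m (0.138) and Snrnp27 (0.150). Among the 9 genes themselves the most alike pair was Nlrp4c and Nlrp9c (0.218), the 2 that did not pass the test, followed by Nlrp4a and Nlrp4b (0.227), and the least alike was Nlrp9b and Nlrp9c (1.12).

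Of 8 tested non-member genes within 100000 bases of a member, 2 rose, 3 fell and 3 did not pass. Nlrp5, next to Nlrp4e, and Igsf23, near Nlrp9b, rose, whereas Zfp369 and Mfsd14b, both near Nlrp4f, and Zfp444, near Nlrp4c, fell. The log2 change of Zfp369 was -1.93 (limma adjusted p = 9.45e-05). All were picked by position alone.

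Summed FPKM per library ranged from 477882 to 605986, and the number of fragments, estimated from the recurring step of low values, was between 11300000 and 14800000 in the controls and between 6900000 (TCC library 2) and 13600000 with TCC. The step was held by 38 to 56 low values per library, of 2024 to 2935, so these estimates are rough. With TCC, mitochondrially encoded genes took 11.1% to 17.6% of FPKM. All 28 oocyte-derived transcripts in the table and all 20 genes activated at the 2-cell stage passed the filter. In the first list 13 rose and 1 fell (median log2 change 0.93), with the smallest adjusted p for Rgs2 (log2 change 3.67), and in the second 5 rose and 8 fell (median -0.30), with the smallest adjusted p for Snai1, which fell by 2.25 on the log2 scale. Cumulus and granulosa cell markers summed to 30.6 to 41.0 FPKM in the controls and 12.0 to 23.2 FPKM with TCC over 20 genes, with Inha and Lhcgr at 0, and of the 5 tested Fshr and Cyp19a1 rose and Amhr2 and Tnfaip6 fell. Tnfaip6 passed the filter through its controls alone, with at most 0.49 FPKM in any TCC library. Amhr2 alone was at 21.4 and 1.23 FPKM, and without it the sums were 10.4 to 18.6 FPKM in the controls and 11.8 to 21.8 FPKM with TCC. Sperm markers summed to 10.9 to 24.5 and 9.27 to 15.6 FPKM over 10 genes, with Smcp at 0, and of 2 tested Prm2 rose and Ldhc fell. Blood and immune markers summed to 41.5 to 71.8 and 8.95 to 35.4 FPKM over 10 genes, with Hbb-bs, Hbb-bt and Cd3e at 0, and of 2 tested Hba-a1 fell. Hba-a1 alone was at 52.9 FPKM in the controls and 17.8 FPKM with TCC, so most of these sums was this gene. The other tested gene, Cd68, was at 2.75 and 2.62 FPKM and did not pass. The part of the cells these markers stand for, and of the lower estimated depth of TCC library 2, in the values of the 9 Nlrp genes was not tested.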

How the data were processed

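Polyadenylated RNA was read as pairs of 150 bases, and the labels' protocols describe both a preparation from bulk total RNA and 16 to 18 cycles of preamplification without saying which was used. Expression was deposited as 1 table of FPKM that the authors computed; STAR, StringTie, featureCounts, DESeq2 1.30.1 and mm10 are named, with no roles, per the submitters' processing notes. Whole reads could not be recovered (at most 7.29% of low values were whole within 0.02). FPKM is relative to each library, so a shift in abundant transcripts moves the others. Identifiers were matched to GENCODE M21 symbols (32620 of 37310). No 2 libraries were identical.

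Genes reaching 1 FPKM in 4 or more of the 8 libraries were tested with limma 3.58.1 in R 4.3.3 (lmFit, eBayes with trend) on log2(FPKM + 1) with Benjamini-Hochberg adjustment over all 12941; the fit was tested on simulated data. Coding identity came from global alignments in Biopython 1.88; protein alignments and a protein motif search were planned and not run. Named genes are the 9 members, other NLR genes past the filter, up to 3 genes per other list by adjusted p, and the 3 nearest profiles per branch; neighbours by position and genes listed at 0 were added. The members and lists were chosen with earlier results of these data known. Alternatives covered the pseudocount, filter, scaling, eBayes settings, the replicate block and left-out libraries.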

Additional observations from a re-analysis of the deposited data

How the results depend on the processing

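Nlrp4a, Nlrp4b, Nlrp9b and Nlrp14 kept their direction and passed the test in all 20 alternatives, and no member changed direction in any. The number of members that rose was 4 without controls 3 and 4, where Nlrp4e (log2 change 0.72), Nlrp4f (0.77) and Nlrp9a (0.50) no longer passed, and ranged from 6 to 9 when 1 library was left out, beside 7.36% to 14.4% of all tested genes; the number that fell was 0 throughout. Nlrp9a was also lost without a filter on low values (adjusted p = 0.1002), where 28046 genes were tested. Nlrp4c passed in 4 alternatives and Nlrp9c in 3, median-of-ratios scaling and omission of TCC library 2 among them, and Nlrp4c had no value under the 5 FPKM filter. The log2 ratio of the summed FPKM was 1.19, 1.70 without controls 1 and 2, 0.82 without controls 3 and 4, 1.53 with median-of-ratios scaling, 1.003 with quantile normalization, and 1.04 to 1.39 when 1 library was left out. Of all tested genes 1466 rose and 3981 fell; the split was 2637 and 3187 with median-of-ratios scaling and 2803 and 2947 with quantile normalization. The total called ranged from 4454 to 5997 when 1 library was left out, and the number of member pairs whose ratio did not overlap from 6 to 8, where leaving out 1 library makes overlap less likely by construction. The cause of these changes was not tested.

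Control and TCC libraries share replicate numbers in the labels. Deviations of same-numbered libraries correlated at 0.338, 0.053, 0.095 and 0.104. Controls 1, 3 and 4 each correlated best with the TCC library of their own number. For control 3 TCC library 4 was close (0.08), and for control 4 TCC library 2 was close (0.082). Control 2 correlated best with TCC library 1 (0.144). These values do not settle whether the numbers are pairs, and the labels state no pairing, so none was used in the main fit. With a replicate block, 7 members rose, 1544 of all genes rose and 4061 fell, 5605 in total against 5447. Depth limits Nlrp4c most, with an estimated 87 fragments in the library where it had the fewest.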
